A study of Homo sapiens with 27 samples.

Results

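The histone cluster genes are the genes of the replication-dependent histone gene clusters, taken here as every gene in the count table whose symbol starts with HIST1H, HIST2H, HIST3H or HIST4H. They were 73 of the 26485 genes in the table. By type they were 6 H1, 18 H2A, 20 H2B, 14 H3 and 15 H4 genes, and by cluster 56 HIST1 genes on chromosome 6, 13 HIST2 and 3 HIST3 genes on chromosome 1, and 1 HIST4 gene on chromosome 12. No measured value was used to choose them. The prefixes also take in HIST2H2BA, HIST2H2BC and HIST1H2APS1, whose current symbols (H2BP1, H2BC20P and H2AC2P) are those of pseudogenes. Of these, HIST2H2BC had enough counts to be tested. RNA-seq was performed in T47D cells, an established luminal breast cancer line with its own GATA3, infected with pHAGE lentivirus and selected with puromycin. The control line carried the empty vector. The other 3 lines stably expressed a Ty1-tagged truncation mutant of GATA3, a transcription factor of luminal breast cells: Splice del (a splice site deletion at X308), C321fs and A333fs (both frameshifts). Each line was a single infected pool with 3 RNA-seq libraries, so that the vector, the mutant and the pool cannot be told apart within a line, and the sources used here do not say that the 3 libraries came from separately infected cells. The comparisons ask whether the histone genes differed between cells with each mutant and cells with the empty vector, and between the mutants.

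Histones package DNA into nucleosomes, whose core holds pairs of H2A, H2B, H3 and H4, while the linker histone H1 binds the DNA between cores. The genes of the clusters are many near copies that are transcribed mainly in S phase, when new chromatin is assembled. Most of their mRNAs end not in a poly(A) tail but in a short stem-loop, which is bound by the stem-loop binding protein SLBP. Some cluster genes also give a polyadenylated mRNA, by using a poly(A) signal beyond the stem-loop or a further exon. How much of a histone mRNA enters a library therefore depends on whether the RNA was chosen by its poly(A) tail. Total RNA was extracted, and the sources used here do not say whether poly(A) RNA was selected before the libraries were made.

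Libraries held 27872208 to 36788024 counted fragments, of which the histone genes took 0.0285% to 0.0320%. The luminal markers were high in all 4 lines, with KRT8 at 7518 CPM in control and 3697 to 5337 in the mutant lines. CPM here are counts scaled to library size and by the trimmed mean of M values (TMM). Of 5 blood cell markers, PTPRC and HBB had 0 counts and 2 others had enough counts to be tested. The 5 summed to at most 6.51 CPM in any library. GATA3 itself, counted from both the cell's own gene and any transcript of the vector that aligns to it, averaged 1281, 1001, 1142 and 1016 CPM in control, Splice del, C321fs and A333fs and so does not check the labels. The TMM factors of the control libraries lay at 0.884 to 0.943 and those of the mutant libraries at 1.01 to 1.05, and results that turn on this scaling are marked as such.

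The stem-loop was looked for as the 16 letters GGNNNTTTTNAGNNCC on the sense strand of the exons and the 50 bases past their end, in the hg38 genome. It was found in 67 of the 73 histone genes (91.8%) and in 0.326% of all other genes. Shown are the sites of the members that the results below turn on, 5′ to 3′, with the 16 letters in capitals and 7 bases on each side:
HIST1H4C: acccaaaGGCCCTTTTCAGGGCCgctcaca
HIST1H4H: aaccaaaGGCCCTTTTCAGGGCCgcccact
HIST4H4: tccaaaaGGCCCTTTTCAGGGCCcccaaac
HIST3H2A: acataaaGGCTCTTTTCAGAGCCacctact
HIST3H2BB: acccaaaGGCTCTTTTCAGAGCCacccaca
HIST1H2BH: acccaaaGGCTCTTTTCAGAGCCacttaat
HIST1H1C: cccaaaaGGCTCTTTTCAGAGCCaccactg
HIST1H2AC: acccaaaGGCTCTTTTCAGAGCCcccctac
HIST1H2BD: tcccaaaGGCTCTTTTAAGAGCCacgcagg
HIST1H3H: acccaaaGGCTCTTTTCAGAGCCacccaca

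All 14 H4 genes with a match had the stem GGCCCT and AGGGCC, as in HIST1H4C, which none of the 53 matches of the other types had. Of those 53, 50 had GGCTCT and AGAGCC, as in HIST1H1C and HIST3H2A. The commonest full form, with the loop TTTC, was in 40 genes of the H1, H2A, H2B and H3 types. HIST1H3E and HIST1H2BK, which matter below, were among the 6 genes with no match in their annotated exons or just past them, together with HIST2H2BA, HIST1H2APS1, HIST1H2BI and HIST1H4L. A match describes the letters only. AATAAA, the letters of the poly(A) signal, lay in the last 50 exon bases of 5 histone genes, HIST2H2BE, HIST1H2BD, HIST1H2BH, HIST1H2BK and HIST1H4J. That is 6.85% of them, against 53.7% of all other genes. In HIST1H2BH and HIST1H4J the stem-loop match ends 5 and 6 bases before the exon end. There AATAAA lies before the match and not beyond it.

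Only part of the family had enough counts to test. A gene was tested where edgeR's filterByExpr kept it, which held for 14789 genes and for 35 of the 73 histone genes: 3 of 6 H1, 7 of 18 H2A, 13 of 20 H2B, 7 of 14 H3 and 5 of 15 H4. The members just inside the filter were HIST1H3C, with 109 counts over all 12 libraries, and HIST4H4, with 115. Just outside were HIST1H1B, with 90, and HIST1H2AL, with 76. Of the 38 genes not tested, 10 had 0 counts in every library. Of the 35 tested, 26 averaged under 100 counts per library (74.3%), against 21.6% of all genes tested, and a difference of a given size is called less readily at such counts. The highest count of an untested gene in any library was 14 for H1, 13 for H2A, 5 for H2B, 8 for H3 and 13 for H4. These counts say that the genes were not measurable here, not that they were silent.

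Some of the zeros belong to duplicated genes. The annotation places HIST2H2AA3 and HIST2H2AA4, HIST2H3A and HIST2H3C, and HIST2H4A and HIST2H4B each over the exons of both copies, and the counting left out fragments that fall on more than 1 gene, so these 6 genes had 0 counts and no level can be given for them. The other 4 genes at 0 were HIST1H2AA, HIST1H2BA, HIST1H2APS1 and HIST1H4L. Near copies limit further values. HIST1H4K shared 90.2% of its 100-base words with HIST1H4J, and HIST1H2AI shared 63.0% with HIST1H2AJ, so fragments may be lost or split between them. HIST1H3D overlaps HIST1H2AD by 435 exon bases and HIST2H2BF overlaps FCGR1A by 102, and the counting ignored the strand.

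Levels of genes are compared as CPM per kb of exon, and positions are those of hg38. HIST1H2BK (current symbol H2BC12; chr6:27138293-27146858, minus strand, 2 exons), an H2B gene, stood far above the rest with a mean of 181 CPM per kb over the 12 libraries. It held 50.4% of all histone counts. Next came HIST1H1C, a linker histone gene, with 44.2 CPM per kb, then HIST3H2A with 31.2, HIST1H2AC with 23.9 and HIST1H2BD with 21.3. The highest H3 gene was HIST1H3H, with 11.4 CPM per kb, and the highest H4 genes were HIST1H4C and HIST1H4H, with 6.84 and 6.72. The median over the tested members was 2.87 CPM per kb. As a whole, H2B genes held 69.5% of the histone counts, H2A 12.6%, H1 11.2%, H3 4.20% and H4 2.53%, although a nucleosome core takes equal numbers of the 4 core histones. The duplicated HIST2 genes left without counts are H2A, H3 and H4 genes, and none is an H2B gene. The shares of those types therefore miss their fragments. The 5 genes with AATAAA near their exon end held 64.5% of the histone counts, and the 68 without it held 35.5%. The 67 genes with a stem-loop match held 48.7%.

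**Figure D1:**
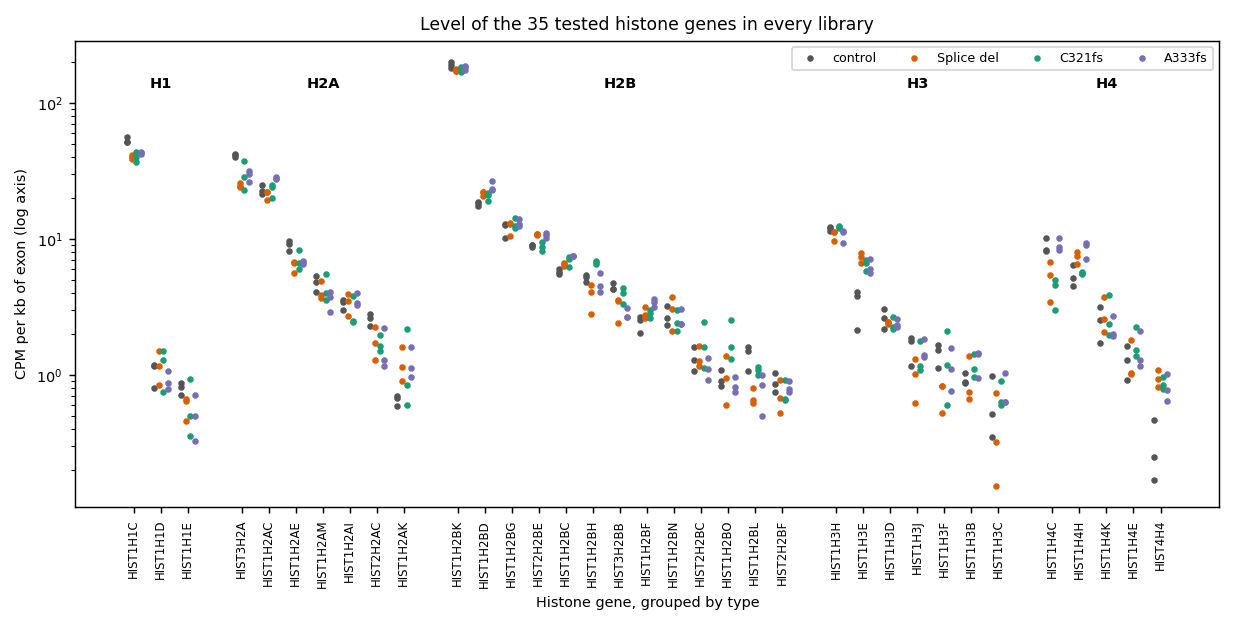
CPM per kb of exon (log axis) of each of the 35 tested histone genes, grouped by type along the x axis and ordered by mean level. Each point is 1 of 12 libraries, coloured by line. HIST1H2BK stands highest at a mean of 181 CPM per kb, and the control points of HIST1H3E and HIST4H4 lie below those of the mutant lines.

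Against control, few histone genes were called, in both directions, and they came from different types. A gene was called where edgeR's quasi-likelihood test gave a Benjamini-Hochberg adjusted p below 0.01 over all genes tested and the fold change was over 1.5. In Splice del, 2 of 35 histone genes were higher (HIST1H3E and HIST4H4) and 2 lower (HIST1H4C and HIST3H2A), beside 6.21% and 4.53% of all genes tested. In C321fs, 2 were higher (HIST1H3E and HIST4H4) and 1 lower (HIST1H4C), beside 4.63% and 2.26%. In A333fs, 3 were higher (HIST1H3E, HIST4H4 and HIST1H4H) and 1 lower (HIST3H2BB), beside 5.46% and 6.81%. These shares lay near those of all genes. HIST4H4, among the higher genes of each line, passed the filter only through the mutant libraries. The 3 comparisons share the control libraries. In bulk RNA, fewer cells in S phase and less histone RNA per cell cannot be told apart. The median log2 fold change of the tested histone genes was -0.12 in Splice del, -0.00274 in the C321fs line and -0.079 in the A333fs line, against 0.032, 0.021 and 0.00862 over all genes tested.

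Without the fold limit, 3 histone genes passed as higher and 4 as lower in Splice del (41.1% of all genes passed in either direction), 2 higher and 3 lower in C321fs (36.8%), and 6 higher and 3 lower in A333fs (47.4%). The 3 libraries of the mutant line did not overlap those of control for 7 histone genes that were higher and 12 that were lower in Splice del (31.7% and 31.3% of all genes tested), for 6 and 4 in C321fs (27.3% and 26.7%), and for 9 and 8 in A333fs (31.2% and 34.3%). A test of any difference among the 4 lines passed for 10 of 35 histone genes (28.6%), against 56.2% of all genes tested. These were HIST1H1C, the H2A genes HIST3H2A, HIST1H2AC and HIST1H2AE, the H2B genes HIST2H2BE, HIST1H2BD and HIST1H2BH, the H3 gene HIST1H3E, and the H4 genes HIST1H4C and HIST1H4H.

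**Figure D2:**
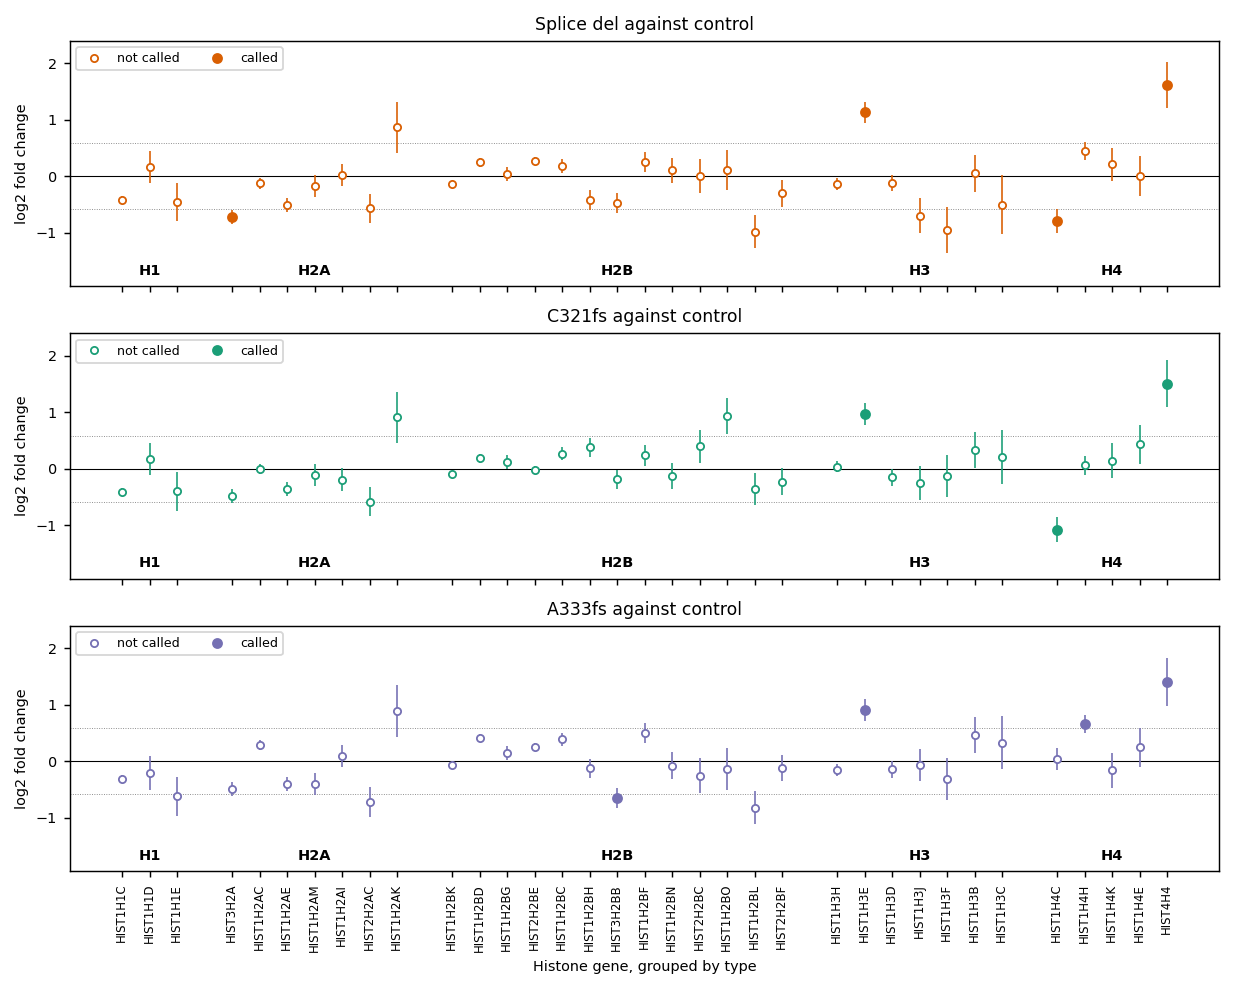
log2 fold change of each of the 35 tested histone genes against control (y axis, bars: SE of the edgeR fit), 1 panel per mutant line, with genes grouped by type. Filled points were called and dotted lines mark the fold change limit of 1.5. HIST1H3E and HIST4H4 are filled above 0 in each panel, HIST1H4C is filled below 0 in Splice del and C321fs, and HIST1H4H is filled only in A333fs.

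The replicative H3 genes showed 1 call. HIST1H3E (current symbol H3C6; chr6:26225155-26225616, plus strand, a single exon) codes for the replicative form of H3. It was read at 1.87, 0.994 and 1.77 CPM in the control libraries, 3.10, 3.66 and 3.38 in Splice del, 3.26, 2.67 and 3.08 in the C321fs line and 2.61, 3.29 and 2.76 in the A333fs line. Every mutant library lay above every control library, and control replicate 2 was the lowest of all. The fold change against control was 2.19 in Splice del (log2 1.13 ± 0.19, adjusted p = 0.000112), 1.96 in C321fs (log2 0.97 ± 0.19, adjusted p = 0.000696) and 1.88 in A333fs (log2 0.91 ± 0.19, adjusted p = 0.000747). The calls held under all alternatives run, and leaving out any 1 library left the log2 fold change at 0.89 to 1.29 in Splice del, 0.72 to 1.13 in C321fs and 0.66 to 1.07 in A333fs. The 3 mutant lines overlapped each other, and no pair of them passed the test (adjusted p = 0.593, 0.827 and 0.356).

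HIST1H3E shares no 100-base word with another gene. The 250 bases before its RefSeq start (GRCh38.p14, chr6:26224885-26225134, plus strand) are shown because it was the member with the most stable calls, with the CCAAT box, which binds the factor NF-Y, in capitals:
HIST1H3E: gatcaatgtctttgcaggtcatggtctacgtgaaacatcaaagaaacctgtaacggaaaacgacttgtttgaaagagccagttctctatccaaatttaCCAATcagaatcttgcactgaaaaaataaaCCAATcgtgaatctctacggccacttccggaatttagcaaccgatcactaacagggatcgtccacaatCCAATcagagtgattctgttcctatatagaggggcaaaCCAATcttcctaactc
They hold 4 CCAAT boxes and no TATAAA or ATTTGCAT. CCAAT on either strand (as CCAAT or ATTGG) was in the promoter, from 250 bases before to 50 after the start, of all 10 H3, 18 H2B, 14 H2A and 6 H1 genes with a RefSeq promoter but of 3 of 12 H4 genes, and of 34.6% of all promoters. TATAAA was in 63.3% of the 60 histone promoters and 11.5% of all promoters. ATTTGCAT, the octamer element bound by POU2F1, was in 14 of the 18 H2B and 11 of the 14 H2A promoters, in 1 H3 promoter and in no H1 or H4 promoter, against 1.77% of all promoters. These promoters are not all separate stretches. Those of H2A and H2B genes that lie head to head overlap, so that 1 site can count for both genes. The H3 promoter with ATTTGCAT, that of HIST1H3D, is the same stretch as that of HIST1H2AD.

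The most abundant H3 gene behaved otherwise. HIST1H3H (H3C10; chr6:27810064-27810536, plus strand) was read at 5.77, 5.42 and 5.69 CPM in the control libraries, 5.37, 4.58 and 5.36 in Splice del, 5.78, 5.65 and 5.86 in the C321fs line and 5.33, 4.40 and 5.40 in the A333fs line. Its fold change was log2 -0.14, 0.036 and -0.16 for Splice del, then C321fs, then A333fs (adjusted p = 0.268, 0.790 and 0.212), and C321fs overlapped control. The other 5 tested H3 genes, HIST1H3B, HIST1H3C, HIST1H3D, HIST1H3F and HIST1H3J, lay between log2 -0.95 (HIST1H3F in Splice del, adjusted p = 0.0597) and log2 0.46 (HIST1H3B in A333fs, adjusted p = 0.225), and none was called.

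Both of the more abundant H4 genes differed between mutants. HIST1H4C (current symbol H4C3; chr6:26103948-26104337, plus strand) was lower in Splice del and C321fs and was not called in A333fs. Its level was 3.97, 3.24 and 3.16 CPM in the control libraries, 1.34, 2.13 and 2.65 in Splice del, 1.80, 1.94 and 1.17 in the C321fs line and 3.26, 3.96 and 3.40 in the A333fs line. All libraries of Splice del and C321fs lay below all of control, whereas those of A333fs overlapped control. It was 2.11-fold lower in C321fs (log2 -1.08 ± 0.22, adjusted p = 0.000876) and 1.73-fold lower in Splice del (log2 -0.79 ± 0.21, adjusted p = 0.00480), and in A333fs the value was log2 0.035 ± 0.19, adjusted p = 0.891.

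Between the mutants, HIST1H4C was 2.17-fold higher in A333fs than in C321fs (log2 1.11 ± 0.22, adjusted p = 0.00127) and 1.77-fold higher in A333fs than in Splice del (log2 0.82 ± 0.21, adjusted p = 0.00945). Both results with C321fs held when any 1 library was left out, at log2 -1.21 to -0.89 against control and 0.92 to 1.25 in A333fs against C321fs. The call of Splice del against control was lost without control replicate 1, control replicate 2, Splice del replicate 1 or Splice del replicate 2, with log2 -0.84 to -0.54, with the GC and length trend removed (-0.57) and with library size alone (-0.60). The difference between A333fs and Splice del was lost in 9 of 12 such fits, those without any control or A333fs library, Splice del replicate 1 or 2 or C321fs replicate 2, with log2 0.58 to 0.88, and with library size alone (log2 0.78, adjusted p = 0.0101).

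HIST1H4H (H4C8; chr6:26285126-26285499, minus strand), a gene of nearly the same level per kb, was higher in A333fs. It was read at 1.70, 2.41 and 1.94 CPM in the control libraries, 2.45, 3.01 and 2.79 in Splice del, 2.10, 2.15 and 2.07 in the C321fs line and 2.68, 3.38 and 3.49 in the A333fs line. The A333fs libraries lay above all of control, the C321fs libraries lay inside the control range, and those of Splice del lay just above it. It was 1.58-fold higher in A333fs than in control (log2 0.66 ± 0.15, adjusted p = 0.00177) and 1.51-fold higher than in C321fs (log2 0.60 ± 0.15, adjusted p = 0.00871). In Splice del the value was log2 0.44 ± 0.16, adjusted p = 0.0270, and in C321fs log2 0.060 ± 0.17, adjusted p = 0.781. With library size alone or with the GC and length trend removed, HIST1H4H was called higher in Splice del too. It was not called between A333fs and Splice del. Without control replicate 1 or A333fs replicate 3, the call against control was lost (log2 0.55 to 0.58). The call against C321fs, which sat at the fold limit, was lost in 9 of 12 fits that each left out 1 library, all but those without control replicate 1, control replicate 2 or A333fs replicate 1 (log2 0.52 to 0.61), in DESeq2 (adjusted p = 0.0101) and with library size alone (log2 0.58).

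HIST4H4 (H4C16; chr12:14770720-14771131, minus strand), which stands alone on chromosome 12, was higher in each mutant line but rests on very few counts. It had 3, 6 and 2 counts in the control libraries, 13, 15 and 11 in Splice del, 13, 10 and 10 in the C321fs line and 13, 10 and 9 in the A333fs line. HIST4H4 thus passed the filter only through the mutant lines, where it was high, so its calls are not independent of the filter. No mutant library was as low as the highest control library. The fold change was 3.07 in Splice del (log2 1.62 ± 0.41, adjusted p = 0.00333), 2.84 in C321fs (log2 1.51 ± 0.42, adjusted p = 0.00730) and 2.65 in A333fs (log2 1.41 ± 0.42, adjusted p = 0.00926). Leaving out 1 library ended the Splice del call in 3 of 12 fits (control replicate 1, control replicate 3 and Splice del replicate 2; log2 1.35 to 1.505). The same ended the C321fs call in 6 (control replicates 1 and 3, Splice del replicate 3 and each C321fs replicate; 1.24 to 1.57) and the A333fs call in 11 (all but control replicate 2; 1.14 to 1.56). DESeq2 called it in no line (adjusted p = 0.0197, 0.0336 and 0.0417). The C321fs and A333fs calls were also lost with no filter on low counts and with the replicate block. Where at least 10 counts were required in every library, HIST4H4 was not tested.

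The other 2 tested H4 genes were HIST1H4E and HIST1H4K, whose log2 fold changes against control lay between -0.16 and 0.43, with no adjusted p below 0.305. The 5 tested H4 genes thus held 1 that was lower in Splice del and C321fs and 1 that was called higher in A333fs and lay just above control in Splice del. They also held 1 with few counts that was higher in all 3 lines, and 2 not called.

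The HIST3 cluster holds an H2A and an H2B gene that face away from each other, HIST3H2A (H2AC25; chr1:228457364-228457859, minus strand) and HIST3H2BB (H2BC26; chr1:228458107-228458558, plus strand), with starts 248 bases apart. The stretch between their RefSeq starts (GRCh38.p14, chr1:228457874-228458102, plus strand) is shown because each member was called lower in a mutant line. CCAAT on either strand is in capitals:
HIST3H2A and HIST3H2BB: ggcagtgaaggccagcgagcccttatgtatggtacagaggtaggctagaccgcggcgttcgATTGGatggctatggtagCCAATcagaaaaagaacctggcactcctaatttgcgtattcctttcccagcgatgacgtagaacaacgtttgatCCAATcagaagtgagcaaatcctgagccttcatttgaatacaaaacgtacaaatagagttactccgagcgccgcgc
It holds 3 CCAAT boxes, 2 of them on the plus strand, and no TATAAA or ATTTGCAT.

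HIST3H2A was the most abundant H2A gene, read at 19.8, 20.7 and 20.9 CPM in the control libraries, 12.02, 12.7 and 12.2 in Splice del, 18.5, 14.1 and 11.4 in the C321fs line and 15.7, 12.95 and 14.9 in the A333fs line. Every mutant library lay below every control library, and C321fs spread widest. It was 1.66-fold lower in Splice del (log2 -0.73 ± 0.13, adjusted p = 0.000166), which held without any 1 library (log2 -0.76 to -0.71). In C321fs and A333fs the adjusted p passed and the fold did not (log2 -0.48 ± 0.12, adjusted p = 0.00476, and log2 -0.49 ± 0.12, adjusted p = 0.00287). With the GC and length trend removed, the Splice del value was log2 -0.30 and with library size alone -0.54, both below the fold limit. Removal of that trend left C321fs at log2 -0.19 (edgeR adjusted p = 0.0481) and A333fs at -0.015 (adjusted p = 0.891), so neither passed.

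HIST3H2BB was less abundant, at 1.93, 1.92 and 2.15 CPM in the control libraries, 1.5997, 1.57 and 1.08 in Splice del, 1.49, 1.80 and 1.98 in the C321fs line and 1.19, 1.40 and 1.20 in the A333fs line. The A333fs libraries were all below control, as were those of Splice del, while C321fs overlapped control. It was 1.58-fold lower in A333fs (log2 -0.66 ± 0.18, adjusted p = 0.00497), and in Splice del and C321fs it was not called (log2 -0.48 ± 0.17, adjusted p = 0.0287, and log2 -0.19 ± 0.17, adjusted p = 0.366). The call was lost without any 1 of the control libraries, A333fs replicate 1 or A333fs replicate 3 (log2 -0.69 to -0.61), in DESeq2 (adjusted p = 0.0157), with upper-quartile scaling (log2 -0.55), with library size alone (-0.51) and once the trend over GC content and length was removed (-0.28).

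Of the other H2A genes, HIST1H2AC (H2AC6; chr6:26124145-26124690, plus strand) was the next most abundant and had its highest values in A333fs. Its level was 12.4, 11.8 and 13.7 CPM in the control libraries, 10.6, 12.1 and 12.02 in Splice del, 13.7, 13.2 and 10.9 in the C321fs line and 15.7, 15.0 and 15.3 in the A333fs line. Only A333fs did not overlap control. Against control the A333fs value was log2 0.28 ± 0.092, adjusted p = 0.0150, and against Splice del log2 0.41 ± 0.091, adjusted p = 0.00478, both under the fold limit. HIST1H2AE was lower in Splice del with a passing adjusted p and a fold under the limit (log2 -0.51 ± 0.13, adjusted p = 0.00315). The remaining 4, HIST1H2AI, HIST1H2AK, HIST1H2AM and HIST2H2AC, ran from log2 -0.72 (HIST2H2AC in A333fs, adjusted p = 0.0261) to 0.91 (HIST1H2AK in C321fs, adjusted p = 0.108).

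HIST1H2BK, the member with the most counts, was called in no comparison. It was read at 160.1, 169 and 152 CPM in the control libraries, 144, 145 and 149 in Splice del, 153, 154 and 143 in the C321fs line and 157, 147 and 154 in the A333fs line. The Splice del libraries lay below all of control, and the other lines overlapped control. Its values were log2 -0.14 ± 0.054, adjusted p = 0.0438 in Splice del, log2 -0.097 ± 0.054, adjusted p = 0.144 in the C321fs line and log2 -0.071 ± 0.054, adjusted p = 0.273 in the A333fs line. With library size alone these became 0.052, 0.070 and 0.077, so no direction is given for it.

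HIST1H2BD (H2BC5; chr6:26158121-26171348, plus strand, 2 exons), whose stem-loop match lies 379 bases before the annotated exon end, was read at 16.1, 15.97 and 15.1 CPM in the control libraries, 17.9, 19.1 and 19.0 in Splice del, 18.3, 18.9 and 16.3 in the C321fs line and 22.9, 19.9 and 20.1 in the A333fs line. All mutant libraries lay above all control libraries. The difference passed the adjusted p in A333fs at a fold of 1.33 (log2 0.41 ± 0.077, adjusted p = 0.000279), under the fold limit, and did not pass in Splice del (log2 0.24 ± 0.077, adjusted p = 0.0139) or C321fs (log2 0.18 ± 0.078, adjusted p = 0.0635). HIST1H2BC was of the same kind in A333fs (log2 0.39 ± 0.12, adjusted p = 0.00882), and HIST2H2BE passed the adjusted p in Splice del (log2 0.28 ± 0.067, adjusted p = 0.00259) and A333fs (log2 0.25 ± 0.067, adjusted p = 0.00473) at small folds, with -0.026 in C321fs.

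HIST1H2BH (H2BC9; chr6:26251651-26252075, plus strand) was called between mutants and not against control. Its level was 2.24, 2.05 and 2.29 CPM in the control libraries, 1.73, 1.95 and 1.18 in Splice del, 2.86, 2.77 and 2.92 in the C321fs line and 1.904, 2.39 and 1.73 in the A333fs line. The C321fs libraries were the highest of all, those of Splice del lay below control, and those of A333fs overlapped both control and Splice del. It was 1.74-fold lower in Splice del than in C321fs (log2 -0.80 ± 0.17, adjusted p = 0.00494), while the values against control were log2 -0.42 ± 0.18, adjusted p = 0.0565 in Splice del, log2 0.38 ± 0.16, adjusted p = 0.0644 in the C321fs line and log2 -0.13 ± 0.17, adjusted p = 0.541 in the A333fs line. The difference was not called without Splice del replicate 1, Splice del replicate 3 or any of the C321fs libraries (log2 -0.84 to -0.63) or with the GC and length trend removed (log2 -0.70, adjusted p = 0.0125). The other 7 tested H2B genes, HIST1H2BF, HIST1H2BG, HIST1H2BL, HIST1H2BN, HIST1H2BO, HIST2H2BC and HIST2H2BF, were not called in any comparison with control. Their values ran from log2 -0.98 (HIST1H2BL in Splice del, adjusted p = 0.0115) to 0.93 (HIST1H2BO in C321fs, adjusted p = 0.0246). With upper-quartile scaling or library size alone, HIST1H2BF was instead called higher in A333fs. HIST1H2BO was instead called higher in C321fs with library size alone.

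Among the linker histones, HIST1H1C (H1-2; chr6:26055740-26056471, minus strand) was lower in every mutant line by less than the fold limit. It was read at 38.1, 41.0 and 38.0 CPM in the control libraries, 28.4, 29.2 and 30.4 in Splice del, 31.8, 29.5 and 27.0 in the C321fs line and 32.0, 31.7 and 30.8 in the A333fs line. No mutant library reached the lowest control library. It was 1.33-fold lower in Splice del (log2 -0.42 ± 0.065, adjusted p = 7.60e-05), 1.33-fold lower in C321fs (log2 -0.41 ± 0.066, adjusted p = 0.000139) and 1.24-fold lower in A333fs (log2 -0.31 ± 0.065, adjusted p = 0.000726). With library size alone the log2 values were -0.23, -0.24 and -0.16, and after removal of the trend over GC content and length -0.078, -0.15 and -0.028, with adjusted p-values of 0.185, 0.0208 and 0.673. HIST1H1D (H1-3; chr6:26234212-26234988, minus strand) was read at 0.916, 0.898 and 0.625 CPM in the control libraries, 1.16, 0.650 and 0.905 in Splice del, 1.16, 1.01 and 0.583 in the C321fs line and 0.613, 0.830 and 0.675 in the A333fs line, and all lines overlapped (adjusted p = 0.645, 0.644 and 0.571 against control). HIST1H1E, the third tested H1 gene, was at log2 -0.46, -0.40 and -0.63 (adjusted p = 0.277, 0.350 and 0.140).

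**Figure D3:**
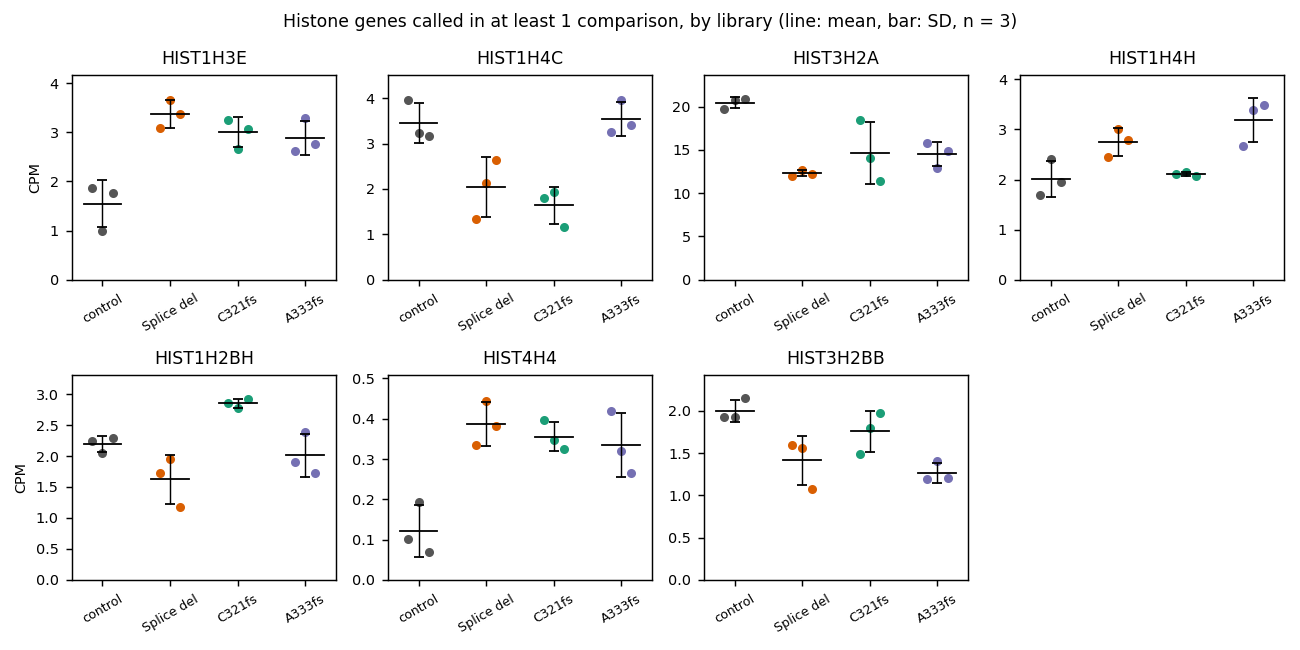
CPM (y axis, from 0) in each library of the 7 histone genes called in at least 1 comparison, by line (x axis). Points are libraries, the horizontal line is the mean and the bar the SD (n = 3). HIST1H3E averages 1.54 CPM in control and 2.89 to 3.38 in the mutant lines, and HIST1H4C separates C321fs (1.63) from A333fs (3.54).

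Summed over each type, the H1 genes had 40.8 ± 1.69 CPM in control (SD, n = 3, as for the sums that follow) against 30.8 ± 1.02 in Splice del, 31.2 ± 2.91 in the C321fs line and 32.8 ± 0.503 in the A333fs line, and no mutant library reached the control range. HIST1H1C alone averaged 39.1 CPM in control. The H2A genes summed to 44.2 ± 1.97 CPM in control and 33.0 ± 1.12, 36.6 ± 6.48 and 38.8 ± 1.39 in the mutant lines, and C321fs overlapped control. The H2B genes summed to 213 ± 9.96 CPM in control and 205 ± 2.21, 206 ± 8.94 and 215 ± 5.47, all overlapping control. Without HIST1H2BK they summed to 52.9 ± 1.595, 59.2 ± 1.02, 56.5 ± 3.37 and 62.1 ± 0.709, with Splice del and A333fs above all of control.

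The H3 genes summed to 12.03 ± 0.461 CPM in control and 12.5 ± 0.308, 13.5 ± 0.761 and 12.6 ± 0.678, with C321fs above control. The H4 genes summed to 7.72 ± 0.489, 7.29 ± 0.710, 6.36 ± 0.251 and 9.15 ± 1.19, with C321fs below control. No test was run on these sums, and their direction depends on the scaling. The H2A, H3 and H4 sums hold no fragments of the duplicated HIST2 genes. With TMM, the ratio of the sum of all 73 genes to control was 0.908 in Splice del, 0.925 in the C321fs line and 0.969 in the A333fs line. With library size alone it was 1.03, 1.04 and 1.07. The H1 ratio was 0.755, 0.763 and 0.804 with TMM and 0.860, 0.856 and 0.890 with library size alone. Library size alone put the median over all genes tested at log2 0.22, 0.19 and 0.16, and upper-quartile scaling at 0.12, 0.11 and 0.12.

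**Figure D4:**
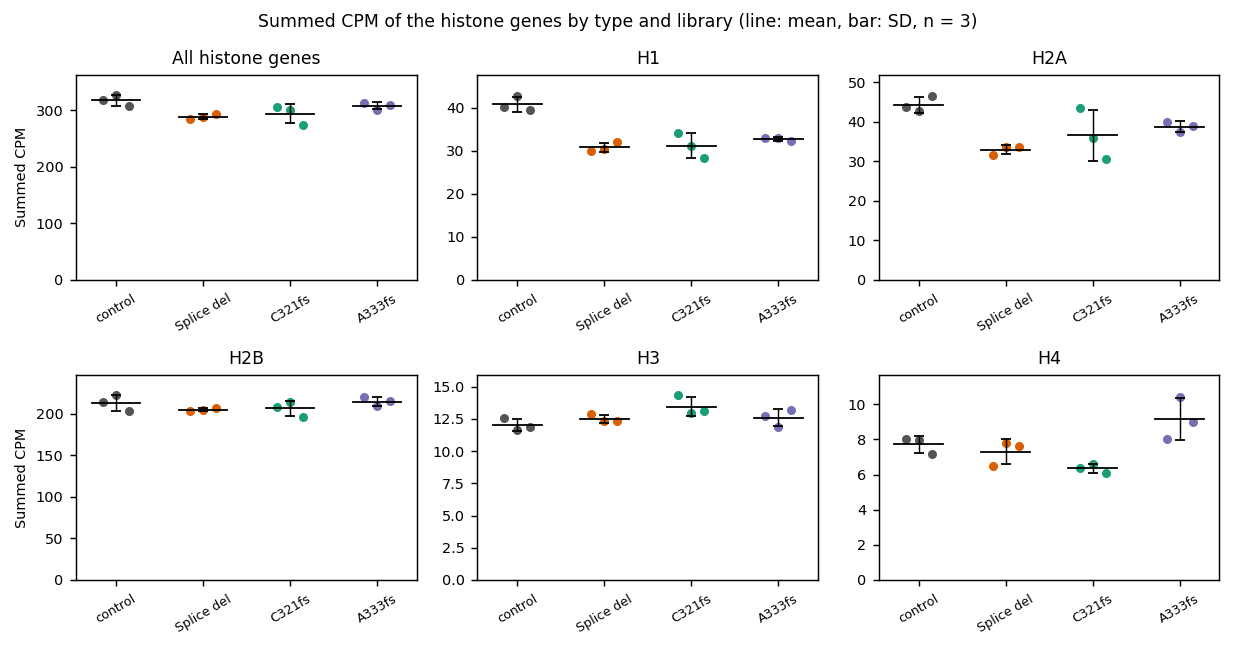
Summed CPM (y axis, from 0) of all histone genes and of each type, by line (x axis). Points are libraries, the horizontal line is the mean and the bar the SD (n = 3). The H1 sum averages 40.8 CPM in control and 30.8 to 32.8 in the mutant lines, and the H2B sum overlaps among the lines.

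Between mutant lines, 1 of 35 histone genes was called in Splice del against C321fs (HIST1H2BH, lower, beside 0.879% of all genes tested in that direction), 2 in A333fs against C321fs (HIST1H4C and HIST1H4H, higher, beside 2.47%) and 1 in A333fs against Splice del (HIST1H4C, higher, beside 1.03%). In all, 7 of 35 histone genes (20%) were called in at least 1 of the 6 comparisons, beside 21.2% of all genes tested. By type, 3 were H4 genes of 5 tested, 1 was an H3 gene of 7, 1 an H2A gene of 7, 2 were H2B genes of 13 and none was an H1 gene of 3, where DESeq2 called none either and edgeR gave HIST1H1C a passing adjusted p at a fold under the limit in each mutant line. The H4 genes include HIST4H4, which passed the filter only through the mutant lines.

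Base composition and length moved with the lines. The tested histone genes had a median exon GC content of 57.8% (47.0% to 65.7%) and a median exon length of 467 bases, against 49.6% and 3148 bases over all genes tested. The slope of log2 CPM on GC content, relative to the mean over the libraries and per 10 percentage points, was 0.147 ± 0.0422 in control, -0.0716 ± 0.0481 for the Splice del libraries, -0.0658 ± 0.0744 for those of C321fs and -0.163 ± 0.0429 for those of A333fs (SD, n = 3). The 2908 other tested genes within the GC and length range of the histone genes had a median log2 fold change of -0.20, -0.16 and -0.23 in the 3 lines.

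When each library's trend over GC content and length, fitted on the other genes, was removed, the median log2 fold change of the 35 histone genes became 0.25, 0.18 and 0.22, and 22, 26 and 24 of 35 genes had a positive value in place of 17, 17 and 15. HIST1H3E and HIST4H4 were then still called in all 3 lines and HIST1H4C in C321fs. HIST1H4H was called in Splice del too, and HIST1H2AC, HIST1H2BC and HIST1H2BF were called higher in A333fs. No histone gene was called lower in Splice del or A333fs by edgeR in that fit, in which HIST3H2A had log2 -0.30 (adjusted p = 0.00254) and HIST1H4C -0.57 (adjusted p = 0.0203) in Splice del. The GC slope separates control from the mutant lines, so that it and the mutants cannot be told apart.

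**Figure D5:**
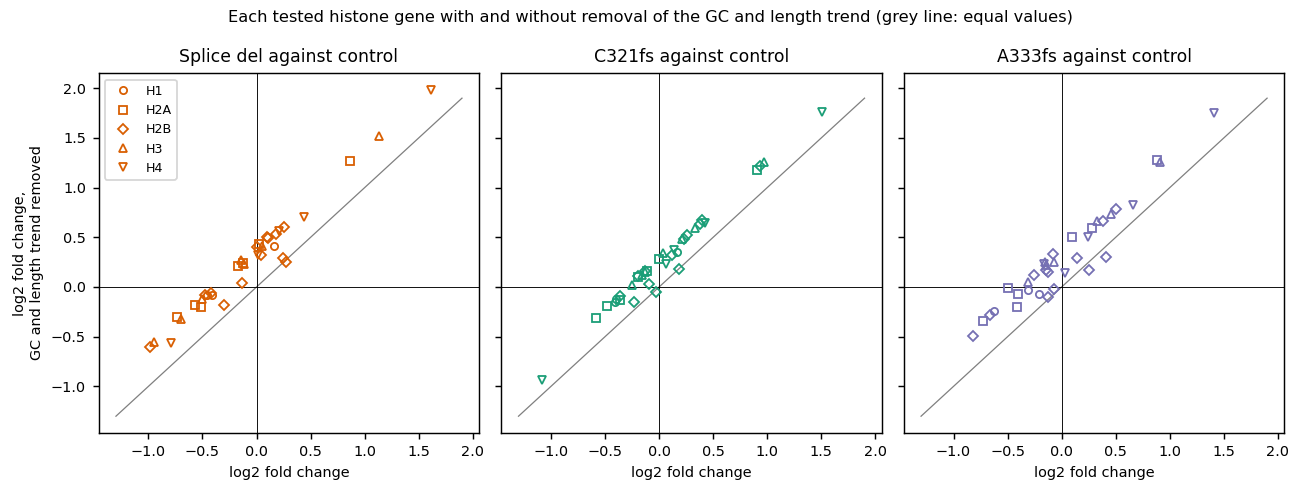
log2 fold change against control of each of the 35 tested histone genes as fitted (x axis) and with each library's GC and length trend removed (y axis), 1 panel per mutant line and 1 marker shape per histone type. Points above the grey line rose on removal of the trend: the median moved from -0.12 to 0.25 in Splice del and from -0.079 to 0.22 in A333fs.

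Besides HIST3H2A and HIST3H2BB, head-to-head neighbours did not always have like values. Of 13 pairs of histone genes with opposite strands and starts within 500 bases, both genes were tested in 8. HIST1H2BG had log2 0.039, 0.12 and 0.14 for Splice del, then C321fs, then A333fs, whereas its neighbour HIST1H2AE had -0.51, -0.36 and -0.41. HIST2H2BE had 0.28, -0.026 and 0.25 and HIST2H2AC -0.57, -0.58 and -0.72. Levels differed too. HIST1H2BK stood at 181 CPM per kb and its neighbour HIST1H2AH, 224 bases away, at 0.132, too low to test.

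Of 17 genes for histone mRNA expression and processing, all tested, none was called in Splice del or C321fs by edgeR (6 and 5 had an unadjusted p below 0.05) and 2 were lower in A333fs, SYMPK (log2 -0.71 ± 0.066, adjusted p = 5.04e-07), a scaffold of the 3′ end cleavage machinery, and SRRT (log2 -0.60 ± 0.059, adjusted p = 8.86e-07), which links the cap to 3′ processing. Their medians were log2 -0.082, -0.0012 and -0.029 for Splice del, then C321fs, then A333fs. Over all genes tested, 4.53%, 2.26% and 6.81% were called lower, with medians of 0.032, 0.021 and 0.00862. These also stand beside the lists below. No list value is given with the GC and length trend removed. SLBP, the stem-loop binding protein, was at 121, 116, 119 and 121 CPM in control and the 3 mutant lines, and NPAT, a coactivator of histone genes, at 31.0, 37.4, 36.5 and 32.4. Neither was called.

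Of the replacement and variant histones outside the clusters, 11 of 12 were tested, and H3F3A was listed at 0. As for the untested cluster genes, that 0 does not say that the gene was silent, and its cause was not tested. H1FX, a linker variant, was lower in Splice del (log2 -0.59 ± 0.084, adjusted p = 3.06e-05) and A333fs (log2 -0.75 ± 0.084, adjusted p = 2.97e-06), as was H2AFX, the H2A variant marked at DNA breaks (log2 -0.64 ± 0.084, adjusted p = 1.46e-05, and log2 -0.72 ± 0.084, adjusted p = 3.78e-06). None was called in C321fs, where 5 had an unadjusted p below 0.05. The medians were -0.17, -0.098 and -0.17. Of 20 histone chaperones, IPO4, which imports histones into the nucleus, was lower in Splice del (log2 -0.88 ± 0.068, adjusted p = 1.07e-07), C321fs (log2 -0.63 ± 0.068, adjusted p = 5.52e-06) and A333fs (log2 -0.70 ± 0.068, adjusted p = 8.15e-07), and ASF1B was lower in A333fs (log2 -0.62 ± 0.061, adjusted p = 8.95e-07). The medians were -0.062, 0.0050 and -0.067.

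S phase genes, which cycle with the replicative histone genes, were called only lower. Of 22 tested, 5 were called lower with Splice del, 1 with C321fs and 4 with A333fs, with medians of -0.37, -0.23 and -0.31. Beside these stand 4.53%, 2.26% and 6.81% of all genes tested, with medians of 0.032, 0.021 and 0.00862. MCM2, a subunit of the replicative helicase, was lower in Splice del (log2 -0.73 ± 0.062, adjusted p = 2.56e-07), C321fs (log2 -0.63 ± 0.061, adjusted p = 2.61e-06) and A333fs (log2 -0.71 ± 0.062, adjusted p = 2.47e-07). CDT1, which loads that helicase, and E2F1, a factor that drives S phase genes, were lower in Splice del and A333fs. The list summed to 4645 to 4945 CPM in control and 3566 to 3642, 3888 to 3984 and 3679 to 3781 in the mutant lines, without overlap. Its part in the histone values was not tested.

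Noncoding RNAs without a poly(A) tail, which share that trait with most histone mRNAs, summed to 32.7 to 53.7 CPM over 10 genes in the control libraries, 23.2 to 39.5 in Splice del, 19.9 to 76.4 in the C321fs line and 23.7 to 31.4 in the A333fs line, with all A333fs libraries below control and the other lines overlapping it. Of 6 tested, 1 was called against control, RPPH1, the RNA of RNase P, lower in Splice del (log2 -1.78 ± 0.43, adjusted p = 0.00255). Fibroblast markers did not move as 1 group. DCN averaged 0.0678 CPM in control, 5.98 in Splice del, 0.0209 in the C321fs line and 12.3 in the A333fs line, LUM was likewise higher in Splice del and A333fs, and COL3A1 was lower in all 3. The 7 markers summed to 53.5 to 65.0 CPM in control and 52.8 to 57.7, 41.2 to 50.2 and 44.7 to 52.4 in the mutant lines. The luminal markers summed to 18552 to 21831 CPM in control and to less, 12324 to 13234, 13059.8 to 13754 and 14085 to 15222, in the mutant lines. The 5 blood cell markers summed to at most 6.51 CPM in any library and the 4 endothelial markers to at most 0.383. Their part in the histone values was not tested.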

How the data were processed

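After trimming (Trimmomatic) and alignment to hg38 of paired 150-base reads, the authors counted fragments whose ends were properly paired, by gene, in featureCounts 1.6.4, without strand and without fragments on several genes or places. The labels name HISAT2 and the file header points to STAR. The deposited counts are whole and not normalized, with 1 column per library, and ChIP-seq was not analysed here. Genes were filtered with filterByExpr by line, scaled by TMM and tested with edgeR 4.0.16 (quasi-likelihood, Benjamini-Hochberg) in R 4.3.3 over all 14789 genes, without covariates. SE is the log2 fold change over the root of F. DESeq2 1.42.0, other scalings and filters, a replicate block and leaving out each library were alternatives. The fit was tested on simulated data. Values in every library were given for members called in any comparison and for the 2 highest per type. From each list of other genes, members called against control most often were named, at most 3 a list, and SLBP and NPAT were added for their roles. Members were taken by symbol and not by a measured value. Earlier results of these data were known when the members and lists were chosen. P-values measure the spread between these libraries only. Stem-loops and promoters were matched in hg38 and RefSeq (GRCh38.p14), where all 73 genes matched by symbol and chromosome and 60 had a promoter.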

Additional observations from a re-analysis of the deposited data

Results flagged for a closer look

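Histone genes were picked out here where their level differed between 2 mutant lines by the test of the difference itself, which means that their change against control was not the same in both. HIST1H4C differed by log2 1.11 between A333fs and C321fs (adjusted p = 0.00127) and by 0.82 between A333fs and Splice del (adjusted p = 0.00945). All 3 A333fs libraries were higher than all libraries of both other mutant lines. HIST1H4H differed by log2 0.60 between A333fs and C321fs (adjusted p = 0.00871), again with A333fs higher in 3 of 3 libraries. HIST1H2BH differed by log2 -0.80 between Splice del and C321fs (adjusted p = 0.00494), with Splice del lower in 3 of 3 libraries. The adjusted p-values come from edgeR, over all genes tested. The flagged histone genes were picked by a test on the same libraries, so the separation of those libraries adds no support. Of 14789 genes tested, 2771 were higher without overlap in A333fs than in C321fs, and 3234 in A333fs than in Splice del. In Splice del, 2117 were lower without overlap than in C321fs. When each library was left out in turn, the HIST1H4C difference between A333fs and C321fs was called in all 12 fits. Its difference between A333fs and Splice del was lost in 9 of 12 fits. The HIST1H4H difference was lost in 9 of 12 and the HIST1H2BH difference in 5 of 12.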

How the results depend on the processing

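As reported, the counts of histone genes called were 2 higher in Splice del, 2 lower in Splice del, 2 higher in C321fs, 1 lower in C321fs, 3 higher in A333fs, 1 lower in A333fs, 1 between Splice del and C321fs, 2 between A333fs and C321fs, 1 between A333fs and Splice del, 10 among the 4 lines. With at least 10 counts required in every library the counts that moved by over 1.5 times were 1 higher in Splice del, 1 higher in C321fs. With DESeq2 the counts that moved by over 1.5 times were 1 higher in Splice del, 1 higher in C321fs, 0 lower in A333fs, 1 between A333fs and C321fs. With no minimum fold change the counts that moved by over 1.5 times were 4 lower in Splice del, 3 lower in C321fs, 6 higher in A333fs, 3 lower in A333fs, 2 between Splice del and C321fs, 2 between A333fs and Splice del. With the GC and length trend removed the counts that moved by over 1.5 times were 0 lower in Splice del, 6 higher in A333fs, 0 lower in A333fs, 0 between Splice del and C321fs. With library size alone the counts that moved by over 1.5 times were 0 lower in Splice del, 0 lower in A333fs, 1 between A333fs and C321fs, 0 between A333fs and Splice del. With no filter on low counts the counts that moved by over 1.5 times were 1 higher in C321fs. With upper-quartile normalization the counts that moved by over 1.5 times were 0 lower in A333fs. The replicate block gave 1 higher in C321fs, 0 between A333fs and Splice del (HIST1H4C at log2 0.82, adjusted p = 0.0146), and also ended the call of HIST4H4 in A333fs (log2 1.42, adjusted p = 0.0126), with no other call changed. Replicate numbers did not pair the libraries (18 pairs with the same number, correlations of -0.123 to 0.165), and the pairing was not used. When each library was left out in turn, the ranges were 1 to 2 higher in Splice del, 1 to 2 lower in Splice del, 1 to 2 higher in C321fs, 1 to 2 lower in C321fs, 1 to 3 higher in A333fs, 0 to 1 lower in A333fs, 0 to 1 between Splice del and C321fs, 1 to 2 between A333fs and C321fs, 0 to 1 between A333fs and Splice del, 7 to 10 among the 4 lines. HIST1H3E in all 3 lines and HIST1H4C in C321fs were called under each alternative run, DESeq2 included. With the GC and length trend removed, the sign turned for HIST1H2BH in A333fs 0.15, HIST3H2BB in C321fs 0.11, HIST1H2AC in Splice del 0.25, HIST1H2AC in C321fs 0.28, HIST1H2BK in Splice del 0.042, HIST1H2BK in C321fs 0.034, HIST1H3H in Splice del 0.27 and HIST1H3H in A333fs 0.26 (log2). With library size alone, the sign turned for HIST1H2BH in A333fs 0.018, HIST1H2AC in Splice del 0.059, HIST1H2AC in C321fs 0.16, HIST1H2BK in Splice del 0.052, HIST1H2BK in C321fs 0.070, HIST1H2BK in A333fs 0.077 and HIST1H3H in Splice del 0.046 (log2). With upper-quartile normalization, the sign turned for HIST1H2AC in C321fs 0.082 and HIST1H2BK in A333fs 0.042 (log2). With at least 10 counts required in every library, the sign turned for HIST1H2AC in C321fs 0.015 (log2). These turns are those of the 13 genes given in every library, and none of these values was called as reported. Over all 35 genes, removal of the GC and length trend turned the sign of 5 with Splice del and of 9 with each of C321fs and A333fs. HIST1H2AC in A333fs and HIST1H3H in C321fs turned under no alternative run. Library size alone was added after the data were seen. The cause of these changes was not tested. The filter on low counts left 38 of 73 members untested, among them the duplicated HIST2 genes whose fragments were left out of the counting.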
